A study of Rattus norvegicus with 32 samples.

Results

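Growth arrest genes and targets of the transcription factor p53 were followed in rat liver after inhalation of ozone, an oxidant gas of polluted air. The set was given as 8 gene names, Cdkn1a, Ccnd1, Ccng1, Gadd45a, Gadd45b, Mdm2, Btg2 and Rrm2. The probe set of each gene was chosen by brightness, that is by mean log2(intensity + 16) over 32 arrays, among those that the platform annotation assigns to 1 gene, and this brightness supports no result. A probe set was found for 7 of the 8 genes, out of 13437 genes with such a probe set, and Btg2 was not analysed here. All 7 passed the filter on dim probe sets that left 10886 genes to be tested.

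Livers came from male Wistar Kyoto (WKY) rats, 10 weeks old and weighing 250 to 300 g, that breathed ozone at 1 ppm or filtered air for 6 h per day. Ozone and air groups were harvested as the first day's exposure ended (day 1, 6 arrays each), as the second day's exposure ended (day 2, 5 arrays each) and 18 h later (5 arrays each, below called 18 h). The labels give no genetic change, no other treatment, and no statement that each array held a separate rat, so the p-values measure the spread between these arrays, some of which may be technical. Values are given in units of probe-set intensity, not as logs, unless a log2 value is named. The design asks how the liver transcriptome changes after 1 and 2 days of ozone and whether the change persists after exposure.

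p53 is kept low by rapid degradation and accumulates after DNA damage and other stress, when it switches on genes that stop the cell cycle, start repair or kill the cell. The best known arrest gene is Cdkn1a, whose product p21 blocks the cyclin-dependent kinases that carry a cell from G1 into S phase, while cyclin D1 (Ccnd1) drives the same step forward. In adult liver most hepatocytes rest outside the cycle, and several of these genes also answer to hormones, feeding and cytokines.

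The chosen probe sets of the genes with several were 8.39 against 7.95 for the next one of Cdkn1a, 8.47 against 8.23 for Ccnd1, 8.08 against 7.74 for Mdm2 and 8.10 against 6.80 for Rrm2 (mean log2 level over all arrays). Ccng1, Gadd45a and Gadd45b had 1 probe set each. Probes for nonspecific binding read 66.1 units on day 1 ozone replicate 3 and 54.3 units on day 1 air replicate 2, and 85.2 to 92.0 units on the other arrays (array medians), so background remains in the values and log2 differences of dim genes are understated. The hepatocyte markers Alb, Apoa1, Ttr, Serpina1, Hnf4a, Fgb and Apob lay at or above the 98.4th percentile of probe sets, so the labelled tissue had its defining markers. Arrays also stood apart from their groups. By correlation with group means over the genes tested, members left out and each gene centred on all arrays, 7 arrays were more like another group than like the rest of their own. Of these, day 2 air replicate 5 (r = -0.53 with its own group and 0.60 with day 2 ozone), day 2 ozone replicate 5 (-0.25 and 0.66 with 18 h ozone), 18 h air replicate 5 (0.10 and 0.61 with day 1 air) and 18 h air replicate 1 (0.26 and 0.70 with 18 h ozone) were known from earlier results of these data. The other 3 were air arrays that lay closer to air of another day. They were day 2 air replicate 1 (-0.01 and 0.67 with day 1 air), whose own-group r was below those of both 18 h air arrays, day 2 air replicate 2 (0.31 and 0.61 with day 1 air) and day 1 air replicate 5 (0.52 and 0.61 with day 2 air), and each was left out singly but not together with the others. The first 4 arrays are called the 4 displaced arrays below, and the first 3 of them and all 4 were also left out together. Since they were picked by likeness of expression to another group, leaving them out can favour wider differences between groups. Calls gained that way are no independent support.

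**Figure D1:**
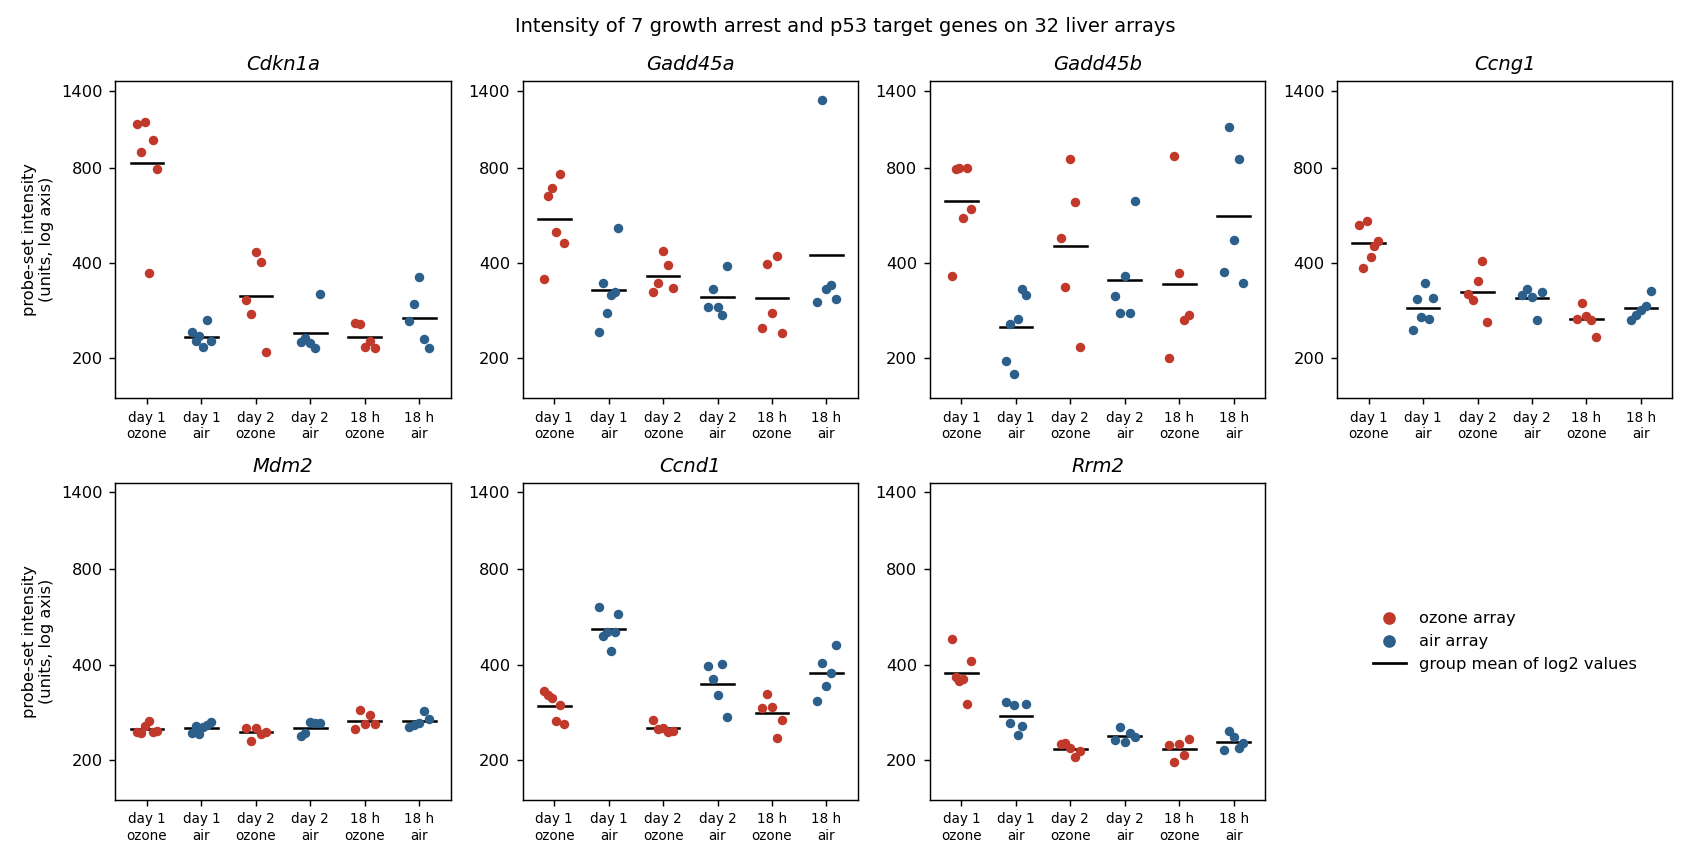
Probe-set intensity (log axis) of each gene on every array, by group, with ozone in red, air in blue and a bar at the group mean of log2 values. Cdkn1a on day 1 shows 5 ozone arrays at 791 to 1110 units and 1 at 372, above all 6 air arrays at 217 to 264, and Mdm2 stays between 229 and 287 in all groups.

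At the end of day 1 the cell cycle inhibitor Cdkn1a, Ccng1, Gadd45a, Gadd45b and Rrm2 were higher after ozone, Ccnd1 was lower, and Mdm2 did not pass the test. Thus 5 of 7 genes were called higher and 1 lower by limma at an adjusted p under 0.05. Over all genes tested, 31.4% were called in this comparison, 13.9% higher and 17.5% lower. The groups did not overlap for Cdkn1a, Ccng1, Gadd45b and Ccnd1, which is 4 of 7, while 16.9% of all genes had groups that did not overlap. The median log2 difference of the 7 genes was 0.65, against 0.00 over all genes. The genes were proposed with results of these arrays known, so this count describes the set and is no independent support.

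Cdkn1a, the p21 gene, read 372 units at the lowest, 935 at the median and 1110 at the highest of the 6 day 1 ozone arrays, and 217, 231 and 264 units in the 6 day 1 air arrays. Every ozone array was above every air array, and the lowest one, replicate 4, stood apart from the other ozone arrays. The means were 874 ± 274 units after ozone and 235 ± 16.5 units after air (SD, n = 6 each). The log2 difference was 1.75 ± 0.18 (SE; adjusted p = 5.2e-08), a 3.36-fold higher value on the offset scale. It ranked 9th by size among the 10886 genes. Its other probe set gave 1.52 (adjusted p = 4.5e-08). Liver RNA comes from a mixture of cells, and in such bulk samples fewer cells of a type and less RNA per cell cannot be told apart.

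Ccng1 encodes cyclin G1, a p53 target that takes part in control of p53 itself. In day 1 ozone livers it read 386, 462 and 541 units (lowest, median and highest), against 246, 289 and 345 units in day 1 air livers. The lowest ozone array was above the highest air array. This gave a log2 difference of 0.65 ± 0.09 (SE; adjusted p = 2e-06).

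The GADD45 proteins are small stress proteins that bind cell cycle and MAP kinase regulators. Gadd45a is a classic p53 target, and Gadd45b is known mainly as a target of NF-kB and TGF-beta signalling. Gadd45b read 364, 691 and 798 units (lowest, median and highest) in day 1 ozone livers and 179, 262 and 331 units in day 1 air livers, with no overlap. Its log2 difference of 1.26 ± 0.32 (SE; adjusted p = 0.0025) ranked 33rd by size. Gadd45a read 355, 575 and 761 units in day 1 ozone livers and 243, 320 and 515 units in day 1 air livers. Here the groups overlapped, since air replicate 6 at 515 units exceeded 3 ozone arrays. Gadd45a differed by 0.72 ± 0.24 on the log2 scale (SE; adjusted p = 0.023), and the call was lost without any 1 of air replicate 1 or ozone replicates 2, 3 and 5 (adjusted p 0.05 to 0.062) and without the 2 arrays of low nonspecific signal (0.67, adjusted p = 0.07).

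Mdm2 encodes the ubiquitin ligase that degrades p53, and p53 in turn activates Mdm2. It read 243, 246 and 265 units (lowest, median and highest) in day 1 ozone livers and 242, 256 and 264 units in day 1 air livers, so the groups overlapped almost completely. The log2 difference was -0.01 ± 0.03 (SE; adjusted p = 0.81), with a 95% confidence interval of -0.08 to 0.06. Its other probe sets gave -0.14 (adjusted p = 0.068) and -0.08 (adjusted p = 0.11). A response of Mdm2 as large as that of Ccng1 lies outside the interval on this array scale. Background left in the values compresses log2 differences, which limits this reading.

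Promoters from RefSeq (GRCr8; 250 bases before to 50 after the annotated start) were found for 6 of the 8 genes, and the p53 half-site, the 10-base element that p53 binds in pairs, was searched as exact matches to its consensus on both strands. They are shown for the 3 members with a match, Cdkn1a, Ccng1 and Gadd45a. The set was given as p53 targets, and a link between the matches and the day 1 calls was not tested. The half-site is in capitals, on the strand of the gene, at position -201 from the start in Cdkn1a (chr20:7150682-7150981, + strand), -232 in Ccng1 (chr10:25684827-25685126, - strand) and -48 in Gadd45a (chr4:97486750-97487049, - strand).
Cdkn1a: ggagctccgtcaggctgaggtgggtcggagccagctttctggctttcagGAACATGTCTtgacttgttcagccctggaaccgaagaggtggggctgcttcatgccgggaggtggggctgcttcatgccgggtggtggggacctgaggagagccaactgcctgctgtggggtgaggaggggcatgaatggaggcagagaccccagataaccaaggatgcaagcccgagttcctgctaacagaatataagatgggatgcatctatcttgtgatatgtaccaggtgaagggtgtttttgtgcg
Ccng1: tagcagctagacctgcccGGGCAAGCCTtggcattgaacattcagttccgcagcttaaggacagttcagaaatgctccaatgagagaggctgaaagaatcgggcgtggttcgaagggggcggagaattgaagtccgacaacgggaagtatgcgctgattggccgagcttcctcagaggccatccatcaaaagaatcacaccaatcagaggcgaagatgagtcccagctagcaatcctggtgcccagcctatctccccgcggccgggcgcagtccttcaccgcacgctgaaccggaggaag
Gadd45a: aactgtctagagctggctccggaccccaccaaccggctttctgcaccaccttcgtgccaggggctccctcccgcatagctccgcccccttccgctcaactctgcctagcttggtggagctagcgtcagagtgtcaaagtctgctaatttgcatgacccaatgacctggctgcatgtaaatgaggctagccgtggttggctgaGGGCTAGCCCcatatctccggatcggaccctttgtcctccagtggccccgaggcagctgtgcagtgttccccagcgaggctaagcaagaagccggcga

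An exact half-site occurred in 8.0% of 33469 promoters of this length. The windows of Gadd45b, which was called higher on day 1, of Mdm2, which was not called, and of Btg2 held none. Sequence outside the windows was not searched, so an absence here does not extend to the rest of a gene. None of the 3 matches overlapped another motif searched. Those motifs and their shares of all promoters were TATAAA (14.2%), CCAAT (37.5%), TGACTCA (4.6%), CACGTG (6.4%), AGAACA (20.7%) and GGGCGG (33.1%). CCAAT and GGGCGG were found in Ccng1, Gadd45a, Gadd45b, Mdm2 and Btg2, CACGTG in Gadd45b only among the 6, and the Cdkn1a window held none of these motifs other than the half-site. These are letter matches, and binding was not measured.

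The genes that push the cycle forward went in opposite directions on day 1. Ccnd1 was lower and Rrm2, the small subunit of ribonucleotide reductase that makes deoxynucleotides for DNA synthesis, was higher. Ccnd1 read 260, 306 and 331 units (lowest, median and highest) in day 1 ozone livers and 441, 507 and 607 units in day 1 air livers, with separate ranges. Its log2 difference was -0.77 ± 0.09 (SE; adjusted p = 2.6e-07), and its other probe sets gave -1.46 (adjusted p = 5.4e-07) and -1.19 (adjusted p = 1.1e-07). Rrm2 read 301, 364 and 481 units in day 1 ozone livers and 240, 280 and 306 units in day 1 air livers, and only the lowest ozone array fell within the air range. Its log2 difference was 0.42 ± 0.07 (SE; adjusted p = 2.6e-05), and its dimmer probe set gave 0.16 (adjusted p = 0.00019).

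**Figure D2:**
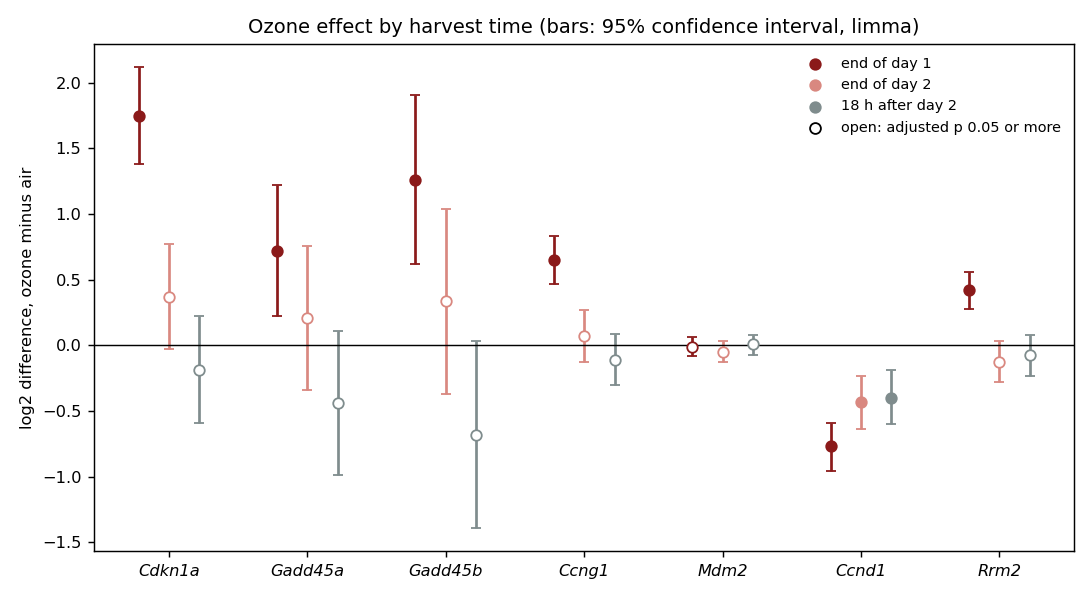
Log2 difference, ozone minus air, of each gene at the end of day 1, the end of day 2 and 18 h after day 2, with 95% confidence intervals from limma; filled points have an adjusted p under 0.05. On day 1 there are 6 filled points, and at both later times only Ccnd1 is filled, at -0.43 and -0.40.

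At the end of day 2 Ccnd1, the G1 cyclin, was the only member called (1 of 7, lower), while 0.753% of all genes were called and 0.257% were called lower. Ccnd1 read 267, 251, 253, 246 and 247 units in day 2 ozone livers, against 395, 360, 321, 401 and 273 units in day 2 air livers. All ozone arrays were below all air arrays, and the ozone arrays lay within a narrow band. The log2 difference was -0.43 ± 0.10 (SE; adjusted p = 0.043). The call was lost when any 1 of 8 of the 10 day 2 arrays was left out, that is replicates 1 to 4 of either group (adjusted p 0.061 to 0.18), and with its other probe sets, whose values were -0.69 (adjusted p = 0.072) and -0.46 (adjusted p = 0.096).

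Cdkn1a at the end of day 2 read 305, 277, 434, 402 and 210 units in ozone livers, against 226, 232, 223, 216 and 319 units in air livers. The groups overlapped through the 2 displaced arrays, ozone replicate 5, the lowest ozone array, and air replicate 5, the highest air array. Cdkn1a had a log2 difference of 0.37 ± 0.20 (SE; adjusted p = 0.43). Without the first 3 displaced arrays it was 0.60 (adjusted p = 0.044) and without all 4 it was 0.60 (adjusted p = 0.047), both past the threshold. These arrays were picked by expression, so these calls are no independent support.

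Rrm2 read 225, 226, 218, 204 and 214 units in day 2 ozone livers and 232, 254, 228, 244 and 237 units in day 2 air livers. The ranges were separate, with ozone below air, but the log2 difference of -0.13 ± 0.08 did not pass (adjusted p = 0.51). Groups that did not overlap were found for Ccnd1 and Rrm2, 2 of 7, against 1.56% of all genes. Gadd45b read 479, 335, 850, 625 and 218 units in day 2 ozone livers, against 314, 279, 365, 279 and 627 units in day 2 air livers, a wide overlap with a log2 difference of 0.34 ± 0.35 (adjusted p = 0.8). The differences of Gadd45a (0.21, adjusted p = 0.87), Ccng1 (0.07, adjusted p = 0.9) and Mdm2 (-0.05, adjusted p = 0.68) did not pass either.

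At 18 h, Ccnd1 was again the only member called (1 of 7, lower), with 1.37% of all genes called and 0.367% called lower. It read 293, 324, 295, 235 and 268 units in 18 h ozone livers and 308, 404, 343, 376 and 460 units in 18 h air livers. The groups overlapped by the highest ozone array, replicate 2, and the lowest air array, replicate 1, which is a displaced array. The log2 difference was -0.40 ± 0.10 (SE; adjusted p = 0.038). This call too was lost without any 1 of 7 of the 10 arrays, air replicates 2 to 5 and ozone replicates 3 to 5 (adjusted p 0.067 to 0.13), without the first 3 displaced arrays (-0.32, adjusted p = 0.057) and with the other probe sets (-0.66, adjusted p = 0.086, and -0.48, adjusted p = 0.081). No member had groups that did not overlap, while 2.88% of all genes did.

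The Gadd45 genes varied most between arrays at 18 h, Gadd45a in air (SD 0.89 on the log2 scale) and Gadd45b in ozone livers (SD 0.79). Gadd45a read 250, 397, 278, 422 and 241 units in 18 h ozone livers, against 302, 1309, 330, 340 and 307 units in 18 h air livers. Air replicate 2 alone stood far above the other arrays. Gadd45b read 200, 873, 372, 264 and 275 units in 18 h ozone livers, against 375, 1071, 472, 851 and 345 units in 18 h air livers. Replicate 2 was the highest array of both groups for Gadd45b, while for Gadd45a this held in air alone. Neither difference passed, at -0.44 ± 0.27 for Gadd45a (adjusted p = 0.54) and -0.68 ± 0.35 for Gadd45b (adjusted p = 0.42), and without air replicate 2 they were -0.04 (adjusted p = 0.97) and -0.45 (adjusted p = 0.73). Cdkn1a at 18 h read 259, 257, 217, 227 and 215 units in ozone livers and 262, 296, 362, 230 and 216 units in air livers, with a log2 difference of -0.19 ± 0.20 (adjusted p = 0.79). Ccng1 (-0.11, adjusted p = 0.74), Rrm2 (-0.07, adjusted p = 0.79) and Mdm2 (0.01, adjusted p = 0.98) did not pass.

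The ozone effects were then compared between times in the same model. The effect on day 2 minus that on day 1 was -1.38 ± 0.27 for Cdkn1a (adjusted p = 0.004), -0.58 ± 0.13 for Ccng1 (adjusted p = 0.0085) and -0.55 ± 0.10 for Rrm2 (adjusted p = 0.0037). These 3 of 7 members were called lower, while 5.54% of all genes were called and 2.14% were called lower. Gadd45b (-0.92 ± 0.47, adjusted p = 0.26), Gadd45a (-0.51 ± 0.36, adjusted p = 0.46) and Ccnd1 (0.34 ± 0.13, adjusted p = 0.13) did not pass, though 1 of the other Ccnd1 probe sets did (0.73, adjusted p = 0.023).

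The 18 h effect minus the day 1 effect was lower for 5 of 7 members, at -1.94 ± 0.47 for Gadd45b (adjusted p = 0.003), -1.93 ± 0.27 for Cdkn1a (adjusted p = 1.6e-05), -1.16 ± 0.36 for Gadd45a (adjusted p = 0.02), -0.76 ± 0.13 for Ccng1 (adjusted p = 0.00015) and -0.49 ± 0.10 for Rrm2 (adjusted p = 0.00086). For Ccnd1 it was higher, 0.38 ± 0.13 (adjusted p = 0.042), and for Mdm2 it was 0.02 (adjusted p = 0.86). Over all genes 22.1% were called in this comparison, 13.4% higher and 8.62% lower. The Gadd45a value was -0.76 (adjusted p = 0.027) without 18 h air replicate 2, and the Ccnd1 call was lost without any 1 of 11 of the 22 arrays (adjusted p 0.054 to 0.095). Both comparisons share the day 1 arrays. The 18 h minus day 1 effects also hold changes between the air groups. Mean log2 levels of Gadd45b on day 1 and at 18 h were 8.06 and 9.18 in air, and 9.33 and 8.49 in ozone livers. Those of Cdkn1a were 7.97 and 8.15 in air, and 9.72 and 7.97 in ozone livers. For Ccnd1 they were 9.06 and 8.61 in air, and 8.29 and 8.22 in ozone livers. The air groups of 18 h and day 1 were not compared by a test.

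Between day 2 and 18 h no member's ozone effect was called by limma, and 0.00919% of all genes were (the 1 gene Phyh, with 986 genes at an unadjusted p under 0.05). The largest members were Gadd45b at -1.02 ± 0.49 (adjusted p = 0.54), Gadd45a at -0.65 ± 0.38 (adjusted p = 0.65) and Cdkn1a at -0.56 ± 0.28 (adjusted p = 0.58). Without the first 3 displaced arrays Cdkn1a (-0.86, adjusted p = 0.048) and Gadd45b (-1.64, adjusted p = 0.024) passed, and without all 4 they also passed (-0.90, adjusted p = 0.049, and -1.88, adjusted p = 0.0081). The same limit of leaving out arrays picked by expression holds for these calls.

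The air groups themselves were not level for Ccnd1. Day 2 air minus day 1 air gave -0.56 ± 0.10 (SE; adjusted p = 0.02), and Ccnd1 was the 1 gene of 10886 called in that comparison (0.00919%), where 734 genes had an unadjusted p under 0.05. Its values were 273 to 401 units in day 2 air livers and 441 to 607 units in day 1 air livers, with no overlap. The other probe sets gave -1.21 (adjusted p = 0.0052) and -1.0 (adjusted p = 0.00037). With the brightest probe set the call was lost without any 1 of 5 of the 11 arrays, day 1 air replicates 1 and 6 and day 2 air replicates 2, 3 and 5 (adjusted p 0.057 to 0.18). No other member was called here, Rrm2 being nearest by unadjusted p at -0.20 ± 0.07 (adjusted p = 0.72). For 18 h air minus day 2 air no member was called by limma, and 0.129% of all genes were called, with 1076 genes at an unadjusted p under 0.05. Gadd45b was 0.64 ± 0.35 (adjusted p = 0.57) and Gadd45a 0.42 ± 0.27 (adjusted p = 0.66) in that comparison.

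**Figure D3:**
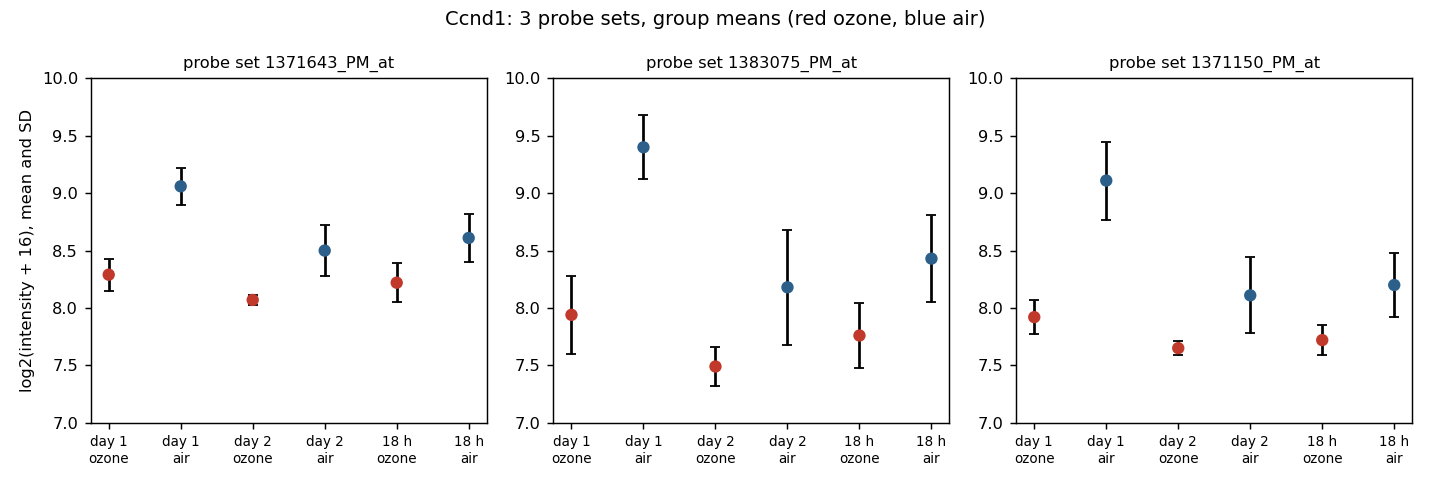
Mean and SD of log2(intensity + 16) for the 3 Ccnd1 probe sets in each group, ozone in red and air in blue, with 6 arrays per group on day 1 and 5 at the later times. In all 3 panels the day 1 air group is highest, at 9.06, 9.40 and 9.11, and each ozone group is below the air group of its time.

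The order of the groups differed by gene. Cdkn1a had a mean log2 level of 9.72 ± 0.58 in day 1 ozone livers (SD, n = 6), which stood above the next group, day 2 ozone at 8.37 ± 0.40 (SD, n = 5), by more than the larger SD. Its other neighbours, 18 h air, day 2 air, day 1 air and 18 h ozone, at 8.15 down to 7.97, differed by less than the larger SD. Ccng1 had the same top pair, at 8.91 ± 0.18 in day 1 ozone and 8.41 ± 0.23 in day 2 ozone, and no other neighbours apart. Ccnd1 ran from 9.06 ± 0.16 in day 1 air through 18 h air (8.61), day 2 air (8.50), day 1 ozone (8.29) and 18 h ozone (8.22) to day 2 ozone (8.07 ± 0.04), with only the first step larger than the SD. Rrm2 was highest in day 1 ozone (8.61 ± 0.22), next in day 1 air (8.19 ± 0.14), and 7.99 to 7.86 in the 4 later groups. With this probe set both day 1 groups stood above the later ones. With its dimmer probe set only day 1 ozone (6.93) did. There day 1 air, at 6.77, lay within the 6.75 to 6.78 of the later groups. For Gadd45a and Gadd45b no neighbouring groups differed by more than the larger SD, and both had day 1 ozone first and 18 h air second. For Gadd45a the place of 18 h air rested on replicate 2 at 1309 units, beside 302 to 340 units on its other arrays. Mdm2 lay between 8.02 and 8.14, with both 18 h groups above the others.

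Within groups the spread of the Gadd45 pair was shared. Of 21 pairs of members, correlated over 32 arrays after each group's mean was removed, Gadd45a with Gadd45b was the 1 pair that passed, with Pearson's r = 0.64 (permutation p = 2e-05 from 100000 permutations within groups, adjusted p = 0.00042 over the pairs) and Spearman's rho = 0.65 (permutation p = 7e-05, adjusted p = 0.0015). It was 0.65 without the 2 arrays farthest from the median of Gadd45a, and 0.60 without the 4 displaced arrays. Cdkn1a with Ccng1 had r = 0.40 (permutation p = 0.062, adjusted p = 0.24) and Cdkn1a with Ccnd1 r = 0.06 (permutation p = 0.75, adjusted p = 0.87). The points are the same 32 arrays for every pair, so both genes of a pair share each array's processing.

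**Figure D4:**
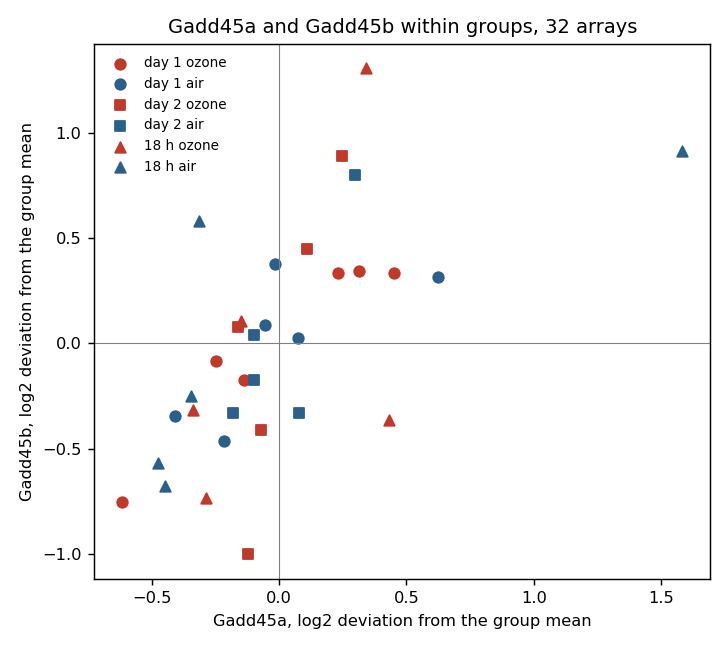
Deviation of each array from its group mean, in log2 units, for Gadd45a (x) and Gadd45b (y), with 1 point per array, ozone in red, air in blue and a marker shape for each time. The points rise together (r = 0.64, n = 32), with 18 h air replicate 2 alone at the far right.

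The genes whose log2 values followed each member most closely over the 32 arrays are given as a description, since all arrays share the group differences. Cdkn1a was followed by Tor3a, Mrps31 and Pnpla2, the fat triglyceride lipase of hepatocytes and adipocytes (r = 0.93 each). For Ccng1 they were Hccs, the enzyme that attaches heme to cytochrome c (0.95), Mrpl47, a protein of the mitochondrial ribosome (0.94), and Arf2 (0.94). For Gadd45b the first was Igfbp1, a secreted binding protein of insulin-like growth factors made in liver (0.82), then Sdc4 and Ccdc6 (0.80 each). Gadd45a had Slc41a1 (0.86), Cidec, a lipid droplet protein (0.85), and Bcl3 (0.85). Ccnd1 had Hsd3b7, a bile acid synthesis enzyme (0.84), Tmsb4x (0.83) and the autophagy receptor Sqstm1 (0.83). Mdm2 had weaker neighbours, Ugt2b1 (0.67), Hspb8 (0.64) and Rad1 (0.59).

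Rrm2 was followed by 3 genes of dividing cells, Top2a, which untangles DNA (0.89), Ube2c, which helps to degrade cyclins in mitosis (0.88), and Cdk1, the mitotic kinase (0.84). On day 1, however, the ozone minus air difference was 0.05 ± 0.03 for Top2a (adjusted p = 0.24), 0.06 ± 0.03 for Ube2c (adjusted p = 0.13) and 0.05 ± 0.05 for Cdk1 (adjusted p = 0.48). These genes thus varied with Rrm2 over the arrays without passing the test of ozone on day 1.

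Other genes of the p53 and cell cycle programmes were read from 6 lists. Of other p53 targets of arrest and feedback, 16 of 19 were tested on day 1, and 1 was higher and 4 were lower, with a median log2 difference of -0.13 against 0.00 for all genes. The higher one was Btg1, an antiproliferative relative of Btg2 (0.49 ± 0.09, adjusted p = 5.4e-05), and the first of the lower ones was Ccng2, cyclin G2 (-0.45 ± 0.08, adjusted p = 4.1e-05). Sesn1, an antioxidant p53 target, was among the lower ones (-0.29 ± 0.08, adjusted p = 0.0067), as were Ephx1 and Sertad1, 3 genes named after their values were seen. Of p53 targets of cell death and DNA repair, 15 of 20 were tested, with 2 higher and 4 lower and a median of -0.05. They included Ei24 (-0.30 ± 0.05, adjusted p = 3e-05) and the death receptor Fas (-0.24 ± 0.05, adjusted p = 0.00033) on the lower side. The 2 higher ones were Pcna (0.18 ± 0.05, adjusted p = 0.0077) and Perp (0.18 ± 0.07, adjusted p = 0.044), also named after their values were seen. Over both lists 3 of 31 tested genes were called higher and 8 lower, where 13.9% of all genes were called higher and 17.5% lower, so these counts lie near the share over all genes.

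The counts of the next 4 lists stand beside the same shares over all genes on day 1 (31.4% called, 13.9% higher and 17.5% lower). G1 regulators had 4 higher and 3 lower of 17 tested, with a median of 0.01. Rb1, the retinoblastoma protein that holds back S phase genes, was lower (-0.62 ± 0.09, adjusted p = 4.7e-06), and so was Ccnd2, cyclin D2 (-0.38 ± 0.05, adjusted p = 2.8e-06). DNA replication genes had 1 higher and 0 lower of 11 tested, with a median of 0.02, the 1 being the primase subunit Prim1 (0.18 ± 0.05, adjusted p = 0.0069). Mitosis genes had 0 higher and 1 lower of 10 tested, with a median of 0.05, the 1 being Cks2 (-0.42 ± 0.08, adjusted p = 0.0001). Of GADD45 and BTG relatives and stress MAP kinases, 2 were higher and 1 lower of 10 tested, with a median of -0.04, among them the p38 activator Map2k6 (0.43 ± 0.10, adjusted p = 0.0019) and the BTG relative Tob2 (-0.40 ± 0.10, adjusted p = 0.002). Genes left untested in these lists were dim or had no single-gene probe set. On day 2 none of the tested genes of the 6 lists was called by limma, and at 18 h the 1 called was Gdf15, a secreted stress cytokine and p53 target (1.13 ± 0.30, adjusted p = 0.049).

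**Figure D5:**
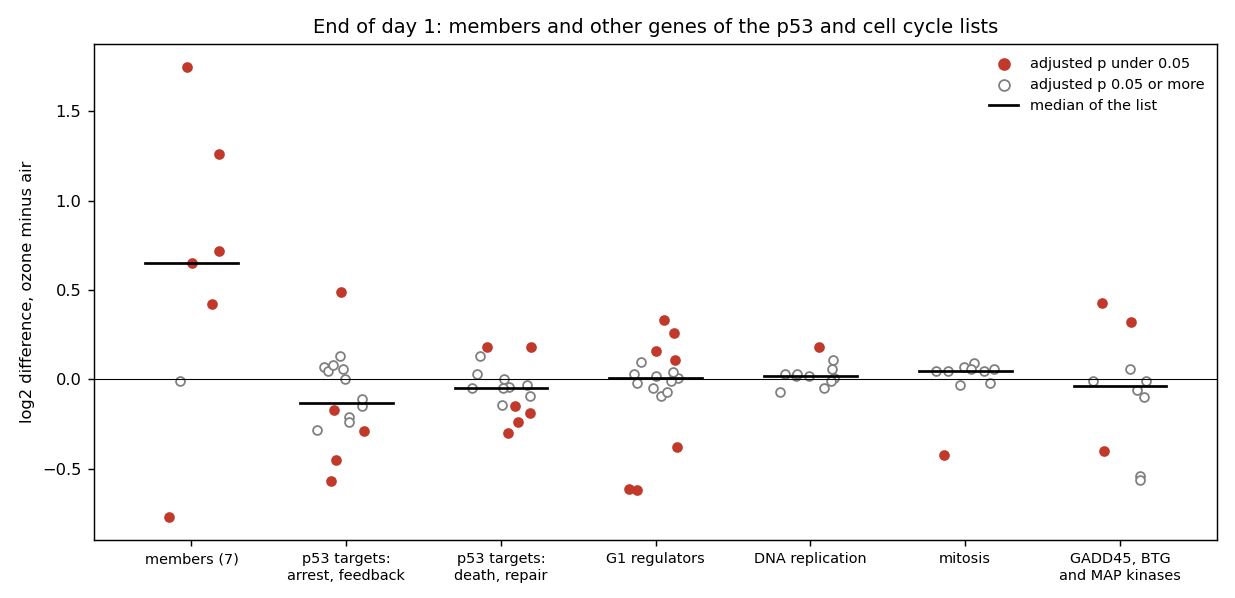
Log2 difference, ozone minus air, at the end of day 1 for the 7 members and for the tested genes of 6 other lists; each point is a gene, red where the adjusted p is under 0.05, and the bar is the list's median. The members' median is 0.65 and the medians of the other lists lie between -0.13 and 0.05.

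Markers of liver cell types were set beside these results. None of the 7 hepatocyte markers tested was called on day 1. Of 8 Kupffer cell and macrophage markers tested of 10, Lyz2 (-0.63 ± 0.09, adjusted p = 3.7e-06) and Adgre1 (-0.27 ± 0.10, adjusted p = 0.047) were lower on day 1, and Lyz2 again on day 2 (-0.40 ± 0.10, adjusted p = 0.043). Their summed intensity ranged over 3994 to 6322 units in ozone and 5120 to 6217 units in air livers on day 1, over 3251 to 4557 units in ozone and 3786 to 6239 units in air livers on day 2, and over 3648 to 4681 units in ozone and 4766 to 5352 units in air livers at 18 h, where the groups did not overlap. The 3 neutrophil and monocyte markers tested of 8 also had separate sums at 18 h, 442 to 535 units in ozone and 538 to 739 units in air livers. By limma, however, none of these 8 macrophage or 3 neutrophil and monocyte markers was called at 18 h. The median log2 difference of the macrophage markers was -0.22, against 0.01 over all genes. It was -0.38 for Clec4f, -0.35 for C1qb, -0.30 for C1qa and -0.24 for Csf1r. Cd163 (-0.19), Cd68 (-0.15) and Adgre1 (-0.14) were also on the lower side, and Lyz2 alone was not (0.01, adjusted p = 0.99). Among the neutrophil and monocyte markers the log2 differences were -0.50 for Ly6c (adjusted p = 0.05), -0.12 for S100a9 and -0.06 for Fcnb. Both sums lay on the same side as Ccnd1 at 18 h, and their part in the Ccnd1 results was not tested. Lower on day 1 were also Ly6c of 3 neutrophil and monocyte markers tested, Tek and Stab2 of 8 endothelial, Lrat of 8 stellate and Epcam of 5 bile duct markers tested, and none of 6 lymphocyte or 4 erythroid markers tested was called, where 17.5% of all genes were called lower. At 18 h Stab2 was higher in ozone livers (0.28 ± 0.07, adjusted p = 0.031). The part of these markers in the members' values was not tested either. No marker was listed at 0, since the lowest value on any array was 30.5 units.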

How the data were processed

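Total liver RNA was labelled as biotinylated cRNA and hybridised to 32 Affymetrix HT-Rat-230 PM arrays, 1 colour each, per the labels' protocols. Per the submitters' processing notes, the authors used Affymetrix Expression Console and PLIER, and they deposited linear intensity values, 1 per probe set. How background and array scale were treated, and with which versions, is not given in the sources used here. Array medians were 147 to 161 units, and no further scaling was applied. Precision is limited by 5 or 6 arrays per group. Scan dates and other batches were not used here.

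Of 31139 probe sets, 97 were controls, 11407 had no gene in the platform annotation, 573 had several and 19062 had 1. Entrez IDs of 18983 of these matched the RefSeq table, and 0 symbols were updated. The brightest probe set stood for its gene, and genes below the 25th percentile of mean level were left out, which kept 10886. Log2(intensity + 16) was tested with limma 3.58.1 in R 4.3.3 (lmFit, eBayes with an intensity trend, 1 mean per group, no block), two-sided, with Benjamini-Hochberg adjustment over all genes tested and a threshold of 0.05. Log2 differences are on this offset scale, so those of dim genes are understated. The procedure was tested on simulated data. Correlations used 100000 permutations within groups over 21 pairs, since 7 of the 8 members had a probe set. Arrays correlated at 0.965 to 0.997 with no identical pair. Each array was counted as 1 replicate, though these values cannot show that each held a separate rat. Replicate numbers did not pair ozone with air arrays.

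Members and lists (14 lists beside the members) were chosen with earlier results of these data known. All members were named, with the 2 called genes of smallest p from each list and the 3 genes of highest correlation with each member, LOC and RGD names passed over. Alternatives covered the offset, filter, normalization, trend, array weights, probe set choice, replicate block, groups in the model and arrays left out. Tables and figures were made in Python 3.11.15 with matplotlib 3.10.9, pandas 2.3.3 and numpy 2.4.6.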

Additional observations from a re-analysis of the deposited data

Results flagged for a closer look

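A single array stood far from the other arrays of its group in 4 of 42 combinations of gene and group, where chance alone marks about 1 in 20. They were Cdkn1a on day 1 ozone replicate 4 (372 units), Cdkn1a on day 2 air replicate 5 (319 units), Ccng1 on day 2 air replicate 4 (265 units) and Gadd45a on 18 h air replicate 2 (1309 units). Without its far array, the Cdkn1a difference of ozone minus air on day 1 was 1.97 (adjusted p = 6.2e-11), and on day 2 it was 0.46 (adjusted p = 0.18). The Ccng1 difference on day 2 was 0.02 (adjusted p = 1) and the Gadd45a difference at 18 h was -0.04 (adjusted p = 0.97).

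The ozone effect differed between day 2 and day 1, by the interaction test in limma, for Cdkn1a (-1.38, adjusted p = 0.004), Ccng1 (-0.58, adjusted p = 0.0085) and Rrm2 (-0.55, adjusted p = 0.0037). Between 18 h and day 1 it differed for Gadd45b (-1.94, adjusted p = 0.003), Cdkn1a (-1.93, adjusted p = 1.6e-05), Gadd45a (-1.16, adjusted p = 0.02), Ccng1 (-0.76, adjusted p = 0.00015), Rrm2 (-0.49, adjusted p = 0.00086) and Ccnd1 (0.38, adjusted p = 0.042). Such differences hold changes between air groups as well as between ozone groups. For Ccnd1 the ozone means of the 2 times were close, and the air mean was lower at 18 h.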

How the results depend on the processing

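Over all alternatives, 1707 differences of members were recomputed. Of these 1647 stayed on their side of the threshold, among them 44 uncalled ones that changed sign, while 51 lost the call, 9 gained it and 0 called ones turned in direction. Genes and members called are given below where a count moved by over 1.5 times, and the cause of each shift was not tested unless fewer arrays or genes explain it by construction. For ozone minus air on day 2 (82 genes and 1 member in the reported fit) the counts were 22 genes and 0 members with no filter, 161 genes with the filter at the median, 159 with quantile normalization, 0 members with the mean of probe sets, 6 genes and 0 members with the replicate block, 1 gene and 0 members with only the groups compared, 2038 genes and 2 members with array weights, 1552 and 2 without 3 displaced arrays, 1591 and 2 without 4, and 18 and 0 without the 2 arrays of low nonspecific signal (an alternative chosen after seeing the data). At 18 h (149 genes and 1 member) they were 0 members with the mean of probe sets, 97 genes and 0 members with the replicate block, 1 gene and 0 members with only the groups compared, 663 genes with array weights, 245 genes and 0 members without 3 arrays and 581 genes without 4. The ozone effect of day 2 minus day 1 (603 genes) had 907 with quantile normalization, 1011 with array weights, 283 without 3 arrays, 330 without 4 and 359 without the 2 low arrays. That of 18 h minus day 2 (1 gene) had 0 with quantile normalization, the mean of probe sets, the replicate block, only the groups compared and without the 2 low arrays, 1102 with array weights, 1016 genes and 2 members without 3 arrays and 1160 and 2 without 4. Air on day 2 minus day 1 (1 gene and 1 member) had 3 with each probe set singly, 2 with the replicate block, 0 genes and 0 members with only the groups compared, 55 with array weights, 2 without 3 arrays, 3 without 4 and 2 without the 2 low arrays. Air at 18 h minus day 2 (14 genes) had 8 with no filter, 23 with the filter at the median, 41 with quantile normalization, 24 with each probe set singly, 6 with the mean of probe sets, 5 with the replicate block, 0 with only the groups compared, 702 with array weights, 356 without 3 arrays and 312 without 4. With 1 array left out at a time, genes called ranged over 3084 to 3470 on day 1 (members 5 to 6), 1 to 1003 on day 2 (0 to 1), 35 to 435 at 18 h (0 to 1), 308 to 917 for the effect of day 2 minus day 1, 0 to 221 for 18 h minus day 2, 2087 to 2437 for 18 h minus day 1 (5 to 6), 0 to 4 for air on day 2 minus day 1 (0 to 1) and 0 to 84 for air at 18 h minus day 2. Pairs of members whose correlation passed numbered 2 without the 2 farthest arrays (also Gadd45a with Rrm2, r = -0.75) and 2 without the 4 displaced arrays (also Gadd45b with Rrm2, r = -0.51).

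Deviations of arrays with the same replicate number correlated between -0.59 and 0.26, and only 1 of 16 ozone arrays correlated best with its own number, so the numbers were not taken as pairs. With the replicate block the Ccnd1 difference kept its size but missed the threshold on day 2 (adjusted p = 0.071), at 18 h (adjusted p = 0.061) and for 18 h minus day 1 (adjusted p = 0.054), and no other member's call changed. The members' chosen probe sets read 179 to 1309 units, above the nonspecific array medians of 54.3 to 92.0 units. Background that remains in these values still limits the members' fold changes.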
